A study of Mus musculus with 9 samples.

Results

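Axl, Mertk and Tyro3, the 3 receptors of the TAM family, and their ligands Gas6 and Pros1 were followed across the 9 RNA-seq libraries of the series. The genes were chosen by measured values, because the FPKM of Axl was far lower in the 3 SSCiPSC libraries than in the 3 SSC libraries, and Mertk, Tyro3, Gas6 and Pros1 were added as the rest of the same receptor and ligand family. Each was found by the coordinates of its locus and not by the gene name printed in the deposited table. They are 5 of the 10753 genes that could be named in this way among 54913 loci, and each had exactly 1 locus.

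The series compared spermatogonial stem cells (SSC) with induced pluripotent stem cells (iPSC) of germ line and somatic origin, with 3 libraries per group. SSC were primary cells at passage 0 from the testes of pups in their first week of life, enriched with magnetic beads for the surface marker Gfra1. SSCiPSC were iPSC obtained from SSC, and fiPSC were iPSC obtained from fetal fibroblasts of male fetuses, both as lines grown from picked colonies, at passage 10 to 11 by the labels. All 3 groups carry the tm1(rtTA*M2)Jae allele of Gt(ROSA)26Sor together with the allele of Col1a1 named tm3(tetO-Pou5f1,-Sox2,-Klf4,-Myc)Jae, so that doxycycline switches on the Yamanaka factors in all of them. The labels name LIF and DOX in the medium, whereas the methods describe gradual withdrawal of doxycycline, and a later passage range, so the state of the transgenes at RNA extraction is not settled. Gfra1 beads enrich cells and do not purify them, and the iPSC were enriched for SSEA1 to lower the number of feeder cells. The study calls its libraries biological samples, but the sources used here do not say whether those of SSC came from separate animals, so p-values measure the spread between these libraries, which may be technical. Fragment totals, estimated from the steps between low values, were 1.77, 4.62 and 1.38 in units of 1000000 for SSC replicates 1, 2 and 3. In the same unit they were 15.8, 13.7 and 15.0 for SSCiPSC and 13.3, 17.6 and 15.4 for fiPSC. Any iPSC library thus exceeded any SSC library in depth by 2.87 to 12.7 times.

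TAM receptors are receptor tyrosine kinases that share an extracellular part of immunoglobulin-like and fibronectin-like domains. Gas6 and Pros1 bridge them to phosphatidylserine on dying cells, and both need vitamin K-dependent carboxylation to bind that lipid. Gas6 binds all of the receptors, and Pros1 binds Tyro3 and Mertk. In the testis the family is known from Sertoli cells, which engulf dying germ cells and residual bodies, and from macrophages, where it also damps innate immune signalling.

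All positions are in the GRCm38 build. The Axl locus lies on the minus strand at chr7:25757210-25788690 and its longest coding transcript has 20 exons. The Mertk locus lies on the plus strand at chr2:128698852-128801725 (19 exons), where an antisense gene, Gm14011, and a small nucleolar RNA gene overlap it. The Tyro3 locus lies on the plus strand of the same chromosome at chr2:119798442-119818105 (20 exons). The Gas6 locus lies on the minus strand at chr8:13465319-13494523 (15 exons), and the annotated Tmem255b on the other strand overlaps the gene. The locus named for Tmem255b (chr8:13444013-13461430) ends short of the Gas6 locus. It was at 0.850, 0.325 and 0 FPKM in SSC and was listed at 0 in all 6 iPSC libraries. The Pros1 locus lies on the plus strand at chr16:62854225-62929494 (15 exons). The library kit marks strand, but whether the authors counted with strand is not given in the sources used here, so reads of overlapping genes cannot be told apart for Mertk and Gas6.

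The promoters of Axl, Mertk and Gas6, the members with the largest ratios of SSC to SSCiPSC levels, are shown to set their sequence beside these levels. Each sequence is the 250 bases before the RefSeq start (GRCm38.p6), 5′ to 3′ on the strand of the gene, and capitals mark GGGCGG on either strand, the core of the GC box. They span chr7:25788734-25788983 for Axl, chr2:128698665-128698914 for Mertk and chr8:13494536-13494785 for Gas6.
Axl: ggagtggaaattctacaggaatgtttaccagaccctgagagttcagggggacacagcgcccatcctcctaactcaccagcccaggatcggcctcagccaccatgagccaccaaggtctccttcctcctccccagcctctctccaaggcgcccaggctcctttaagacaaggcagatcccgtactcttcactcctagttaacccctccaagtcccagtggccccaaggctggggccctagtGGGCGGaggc
Mertk: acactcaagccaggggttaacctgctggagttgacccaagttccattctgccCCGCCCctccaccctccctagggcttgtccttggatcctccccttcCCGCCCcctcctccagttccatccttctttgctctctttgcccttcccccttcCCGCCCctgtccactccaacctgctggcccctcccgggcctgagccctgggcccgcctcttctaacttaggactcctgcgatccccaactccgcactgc
Gas6: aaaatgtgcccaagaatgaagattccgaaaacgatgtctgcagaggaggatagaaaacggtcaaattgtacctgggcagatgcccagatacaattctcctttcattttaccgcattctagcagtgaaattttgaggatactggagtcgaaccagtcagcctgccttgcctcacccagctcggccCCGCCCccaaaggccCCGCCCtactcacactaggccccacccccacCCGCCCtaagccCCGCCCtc

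The Axl window held 1 match, 10 bases before the start, the Mertk window 3 and the Gas6 window 4. The Pros1 window held 5 matches, some of which overlap each other. GGGCGG was present in 32.7% of the 32817 promoters of the same length. The Axl window held 5 CG dinucleotides against a median of 6 over all promoters, and 44.4% of promoters had fewer. Mertk had 7, Gas6 10 and Pros1 15. TGANTCA, the site of AP-1, was in 6.75% of promoters and in none of these 4 windows. These matches describe the letters only. For Tyro3 the window before the RefSeq start overlaps an exon of the GENCODE annotation, and it was not used.

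The levels in each library are in FPKM, fragments per kilobase of transcript scaled to library size, so that levels of different genes can be set beside each other. Axl was at 99.3, 95.7 and 109.5 FPKM in SSC replicates 1, 2 and 3. In SSCiPSC it was at 0.882, 0.592 and 0.765 FPKM. In fiPSC it was at 1.11, 0.894 and 1.46 FPKM. SSC were high and narrow in range, and no iPSC library came near them. The means were 101 ± 7.19 FPKM in SSC, 0.747 ± 0.146 in SSCiPSC and 1.15 ± 0.287 in fiPSC (SD over 3 libraries each). The mean in SSC was 136 times that in SSCiPSC and 88.0 times that in fiPSC. On the scale of log2(FPKM + 1), on which changes of low genes are understated, the difference was -5.88 (SE 0.16) for SSCiPSC minus SSC. It was -5.58 (SE 0.15) for fiPSC minus SSC. No test was made of either, since the first chose the gene and the second shares its SSC libraries. The iPSC values were low but not empty, since they rested on about 35 to 59 fragments in SSCiPSC and 62 to 96 in fiPSC, against 646 to 1885 in SSC. In bulk libraries fewer expressing cells and less RNA per cell cannot be told apart.

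Mertk, the receptor best known for engulfment of dying cells, was at 8.78, 5.69 and 7.92 FPKM in SSC. It was at 1.76, 0.829 and 0.779 FPKM in SSCiPSC. It was at 2.35, 2.85 and 1.76 FPKM in fiPSC. All SSC libraries lay above all iPSC libraries, and the iPSC groups met at their edges, since SSCiPSC replicate 1 and fiPSC replicate 3 were both at 1.76 FPKM. The means were 7.46 ± 1.59, 1.12 ± 0.554 and 2.32 ± 0.544 FPKM in SSC, SSCiPSC and fiPSC (SD, n = 3 each). The SSC mean was 6.64 times the SSCiPSC mean and 3.22 times the fiPSC mean.

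Tyro3, the receptor known mainly from the nervous system, went the other way. It was at 9.44, 19.5 and 12.3 FPKM in SSC. It was at 28.5, 32.7 and 27.6 FPKM in SSCiPSC. It was at 26.1, 25.3 and 30.6 FPKM in fiPSC. Every iPSC library was above every SSC library, SSC replicate 2 came closest, and the iPSC groups overlapped. The means were 13.8 ± 5.20, 29.6 ± 2.72 and 27.4 ± 2.87 FPKM (SD, n = 3 each), 2.15 times as high in SSCiPSC and 1.99 times as high in fiPSC as in SSC.

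Gas6, the ligand of all receptors of the family, was at 31.3, 33.2 and 41.5 FPKM in SSC. It was at 4.06, 5.02 and 4.17 FPKM in SSCiPSC. It was at 2.89, 2.06 and 3.69 FPKM in fiPSC. The 3 groups did not overlap, with SSC highest and fiPSC lowest. The means were 35.3 ± 5.41, 4.42 ± 0.525 and 2.88 ± 0.814 FPKM (SD, n = 3 each), 7.99 times as high in SSC as in SSCiPSC and 12.3 times as high as in fiPSC.

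Pros1, which encodes the anticoagulant protein S, was at 7.23, 4.88 and 11.5 FPKM in SSC. It was at 3.17, 3.53 and 2.52 FPKM in SSCiPSC. It was at 2.18, 1.53 and 3.63 FPKM in fiPSC. SSC lay above both iPSC groups with the widest spread, and the iPSC groups overlapped. The means were 7.86 ± 3.34, 3.07 ± 0.511 and 2.45 ± 1.08 FPKM (SD, n = 3 each). The SSC mean was 2.56 times the SSCiPSC mean and 3.21 times the fiPSC mean, and the SSC values rested on about 42 to 74 fragments.

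**Figure D1:**
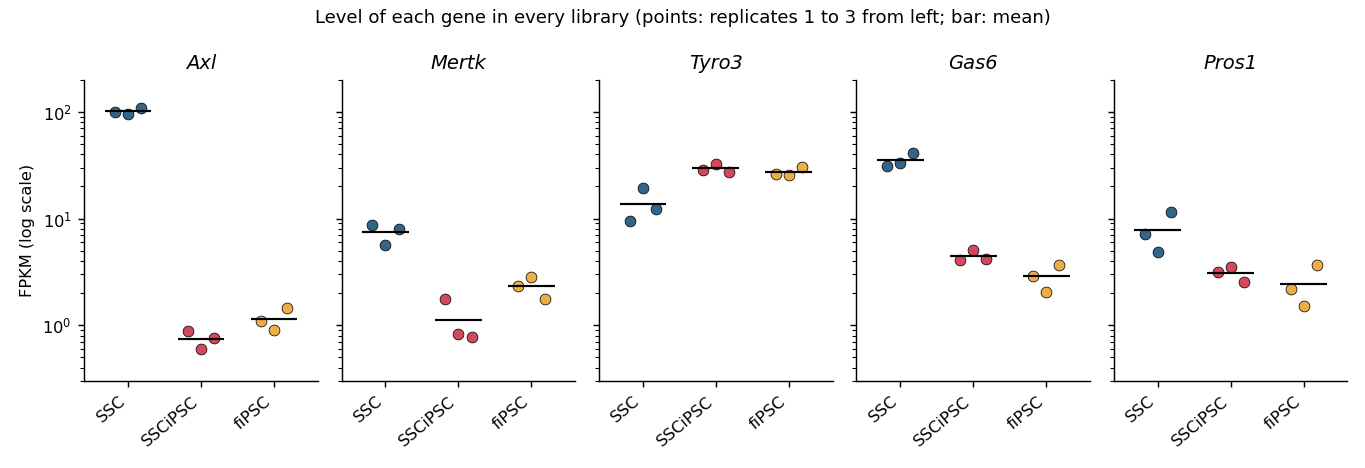
FPKM of Axl, Mertk, Tyro3, Gas6 and Pros1 on a log axis in the 3 libraries of SSC, SSCiPSC and fiPSC, with a point for each library and a bar for the group mean. Axl stands at 95.7 to 109.5 FPKM in SSC and at 0.592 to 1.46 FPKM in the iPSC libraries, while Tyro3 is higher in every iPSC library than in any SSC library.

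The order of the 5 genes therefore differed between SSC and iPSC. In SSC, Axl was followed by Gas6 and then by Tyro3, with no overlap between these 3. Pros1 and Mertk came last and overlapped, and the lowest Tyro3 library (9.44 FPKM) was below the highest Pros1 library (11.5 FPKM). In SSCiPSC the order was Tyro3, Gas6, Pros1, Mertk and Axl, and among neighbours only the libraries of Mertk and Axl overlapped. In fiPSC, Tyro3 was highest and Axl lowest with no overlap with the others, while Gas6, Pros1 and Mertk overlapped.

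The receptors differed between SSC and iPSC both in summed amount and in make-up. Their summed level was 123 ± 6.32 FPKM in SSC, 31.5 ± 2.51 in SSCiPSC and 30.8 ± 2.63 in fiPSC (SD over 3 libraries each). Axl held 84.5, 79.1 and 84.4% of that sum in the SSC libraries. Tyro3 held 91.5, 95.8 and 94.7% in SSCiPSC and 88.3, 87.1 and 90.5% in fiPSC, against 11.2% ± 4.33 in SSC. The share of Mertk was 6.10% ± 1.38 in SSC, 3.58% ± 1.79 in SSCiPSC and 7.65% ± 2.31 in fiPSC. The summed level of the ligands was 43.2 ± 8.46 FPKM in SSC, 7.49 ± 0.953 in SSCiPSC and 5.33 ± 1.88 in fiPSC. Gas6 held 82.2% ± 4.51 of the ligand sum in SSC, 59.1% ± 3.13 in SSCiPSC and 54.9% ± 3.93 in fiPSC. The receptor sums and shares of SSC and SSCiPSC contain the values of Axl for which the genes were chosen, and are given as a description.

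**Figure D2:**
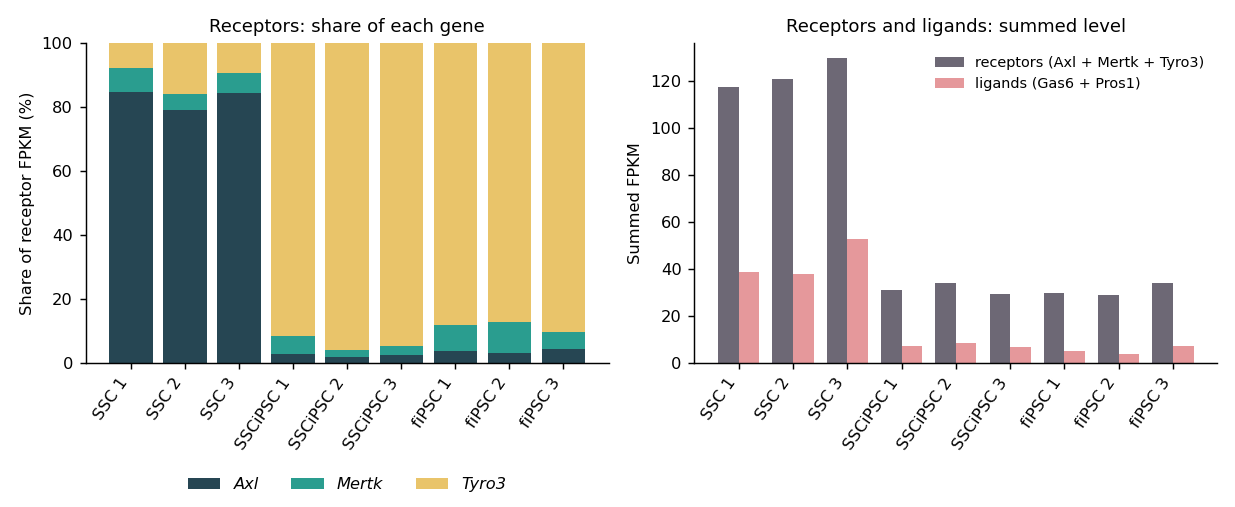
Left, the share in percent of Axl, Mertk and Tyro3 in the summed FPKM of the 3 receptors in each of the 9 libraries. Right, the summed FPKM of the receptors and of the ligands in the same libraries. Axl fills 79.1 to 84.5% of the receptor bar in SSC, and Tyro3 fills 87.1 to 95.8% in the iPSC libraries.

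The first comparison was between SSC and the iPSC made from them. SSCiPSC minus SSC differences of log2(FPKM + 1) were -2.01 (SE 0.30) for Mertk, 1.11 (SE 0.26) for Tyro3, -2.74 (SE 0.18) for Gas6 and -1.06 (SE 0.33) for Pros1, beside -5.88 for Axl. The groups overlapped for none of the 5 genes, 4 of which were lower and 1 higher in SSCiPSC. Among all 36544 loci tested, 28.7% were lower and 31.1% were higher in SSCiPSC with no overlap, and the median difference was 0.11. Since this contrast chose the genes, no test was made of them and nothing is read from the count. By limma with Benjamini-Hochberg adjustment, 50.3% of all loci passed an adjusted p of 0.05 in this contrast, 24.1% as lower and 26.2% as higher in SSCiPSC. Among 9166 named genes tested, the difference of Axl was the 12th from the lowest.

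The comparison of fiPSC with SSC used iPSC libraries that played no part in the choice of genes, but it shares the SSC libraries with the contrast above. Of the 4 genes other than Axl, Mertk, Gas6 and Pros1 were lower and Tyro3 was higher in fiPSC, and all 4 passed the threshold of 0.05. Gas6 fell by 3.24 on the log2 scale (SE 0.21; limma, adjusted p = 0.000132). Mertk fell by 1.35 (SE 0.25; limma, adjusted p = 0.00485). Pros1 fell by 1.34 (SE 0.37; limma, adjusted p = 0.0237). Tyro3 rose by 0.996 (SE 0.26; limma, adjusted p = 0.0191). The groups overlapped for none of these 4 genes.

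Passing was common in this comparison, since 51.8% of 38007 loci passed in either direction, 23.7% as lower and 28.0% as higher in fiPSC, and the median difference was 0.17. Without regard to the test, 28.5% of loci were lower and 33.1% higher in fiPSC with no overlap. Gas6 and Mertk still passed when each of the 6 libraries was left out in turn. That of Tyro3 was lost without fiPSC replicate 1, 2 or 3 (limma, adjusted p = 0.0600, 0.0541 and 0.0743), and that of Pros1 without SSC replicate 1 or fiPSC replicate 1 or 2 (limma, adjusted p = 0.0501, 0.0811 and 0.0839).

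The comparison of fiPSC with SSCiPSC asked whether the cell of origin left a difference in these genes between iPSC lines. It did not choose the genes, although it shares the SSCiPSC libraries with the contrast that did. None of the 4 genes tested passed the threshold by limma, and 2 of them, Mertk and Gas6, had an unadjusted p below 0.05. Mertk was 0.66 higher in fiPSC on the log2 scale (SE 0.25, 95% interval 0.08 to 1.24; limma, adjusted p = 0.368). The exact two-sided permutation p was 0.2. Gas6 had a difference of -0.50 for fiPSC minus SSCiPSC (SE 0.21, 95% interval -0.995 to -0.0015; limma, adjusted p = 0.424). Its 3 fiPSC libraries were all below its 3 SSCiPSC libraries, which gives the smallest exact permutation p that 3 against 3 allow, 0.1. Non-overlap in that direction was found for 9.23% of loci tested, and in the other direction for 9.41%.

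Tyro3 differed by -0.11 (SE 0.13, 95% interval -0.41 to 0.19; limma, adjusted p = 0.780), with an exact permutation p of 0.4. Pros1 differed by -0.28 (SE 0.26, 95% interval -0.89 to 0.33; limma, adjusted p = 0.721), with an exact permutation p of 0.5. With 1 library left out, the difference of Tyro3 ranged from -0.19 to -0.04 and that of Pros1 from -0.51 to -0.08. These intervals do not show that the origins are alike. Axl was below 1 FPKM in every SSCiPSC library and in fiPSC replicate 2. It thus fell short of the 3 libraries required and was not in this fit. Its 3 fiPSC values were all above its 3 SSCiPSC values, a description only, since its SSCiPSC values were used to choose it. Of all 33948 loci tested, 0.0678% passed the threshold (0.0236% higher and 0.0442% lower in fiPSC) and 11.7% had an unadjusted p below 0.05.

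**Figure D3:**
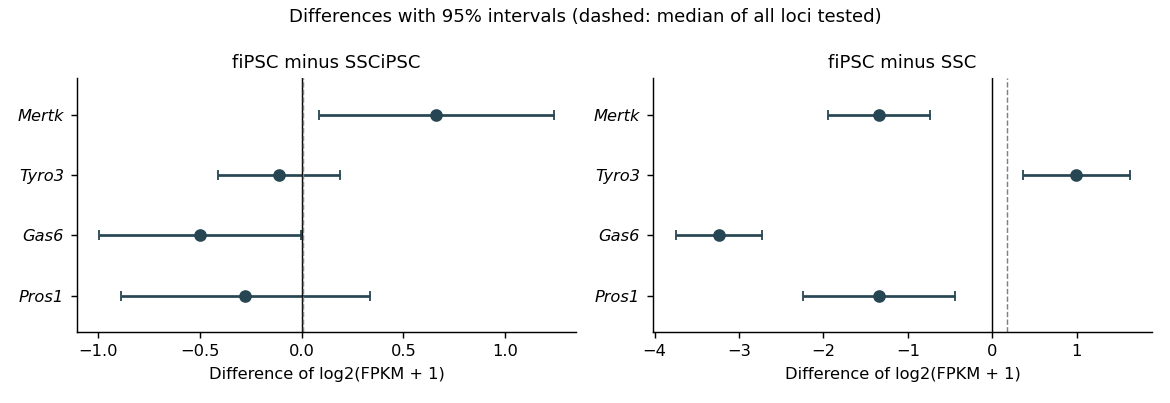
Difference of log2(FPKM + 1) with its 95% interval for Mertk, Tyro3, Gas6 and Pros1, for fiPSC minus SSCiPSC (left) and fiPSC minus SSC (right), each from 3 against 3 libraries, with the median of all loci dashed. On the right none of the 4 intervals spans 0, with Tyro3 above it and Mertk, Gas6 and Pros1 below it. On the left those of Tyro3 and Pros1 span 0.

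The receptors were next placed among the other receptor tyrosine kinases, of which 40 of 58 listed, these 3 included, had a locus. Axl ranked 2nd of 40 by mean level in SSC, with 13.9% of the summed level, between Epha2 (109 ± 7.15 FPKM), an ephrin receptor, and Igf1r (98.0 ± 7.14 FPKM), a receptor of insulin-like growth factors. Its rank was 3, 3 and 1 in SSC replicates 1, 2 and 3, so its order against these neighbours is within the spread. It ranked 26th in SSCiPSC and 25th in fiPSC. By mean level Tyro3 ranked 10th in SSC and 4th in both kinds of iPSC. Within single libraries its rank was 14, 9 and 12 in SSC, 4 to 5 in SSCiPSC and 4 to 6 in fiPSC. Mertk ranked 21st by mean in SSC and in SSCiPSC and 19th in fiPSC, and within single libraries 17, 20 and 20 in SSC, 18 to 24 in SSCiPSC and 17 to 20 in fiPSC.

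The kinases with the highest means in SSCiPSC were Epha2 (48.7 ± 12.4 FPKM), Kit (46.1 ± 3.22 FPKM), the stem cell factor receptor, and Ryk (33.0 ± 3.06 FPKM), a Wnt receptor. In fiPSC they were Epha2 (50.4 ± 4.95 FPKM), Ryk (32.1 ± 1.25 FPKM) and Ptk7 (31.99 ± 1.87 FPKM), a pseudokinase of Wnt signalling. Tyro3 came next in both.

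Of 37 kinases in the fit of fiPSC against SSC, Axl had the lowest difference, below Ret, the partner of Gfra1 in the GDNF receptor (-5.13), Kdr (-3.70) and Igf1r (-3.34). This place is a description, since it uses the SSC values by which Axl was chosen, and Ret and Kdr reached 1 FPKM in none of the fiPSC libraries. Leaving out Axl, Mertk and Tyro3, 34 were tested, of which 21 were lower and 8 higher in fiPSC (limma, adjusted p below the threshold), against 23.7% and 28.0% of all loci. However, among the 6 libraries of this fit, 10 of the 34 reached 1 FPKM in those of SSC only and 1 in those of fiPSC only, so that they had to differ. Of the other 23 kinases, 11 were lower and 7 higher. The counts over the list were 9 lower and 5 higher when loci had to average 5 FPKM or more. Erbb4, a neuregulin receptor, was at 8.28 ± 2.34 FPKM in SSC and was listed at 0 in all iPSC libraries. Between fiPSC and SSCiPSC none of 21 passed by limma, and 5 had an unadjusted p below 0.05, against 0.0678% and 11.7% of all loci. Kit came closest, at 25.9 ± 1.99 FPKM in fiPSC and 46.1 FPKM in SSCiPSC (limma, adjusted p = 0.103, and 0.0418 with loci assigned to a strand only).

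**Figure D4:**
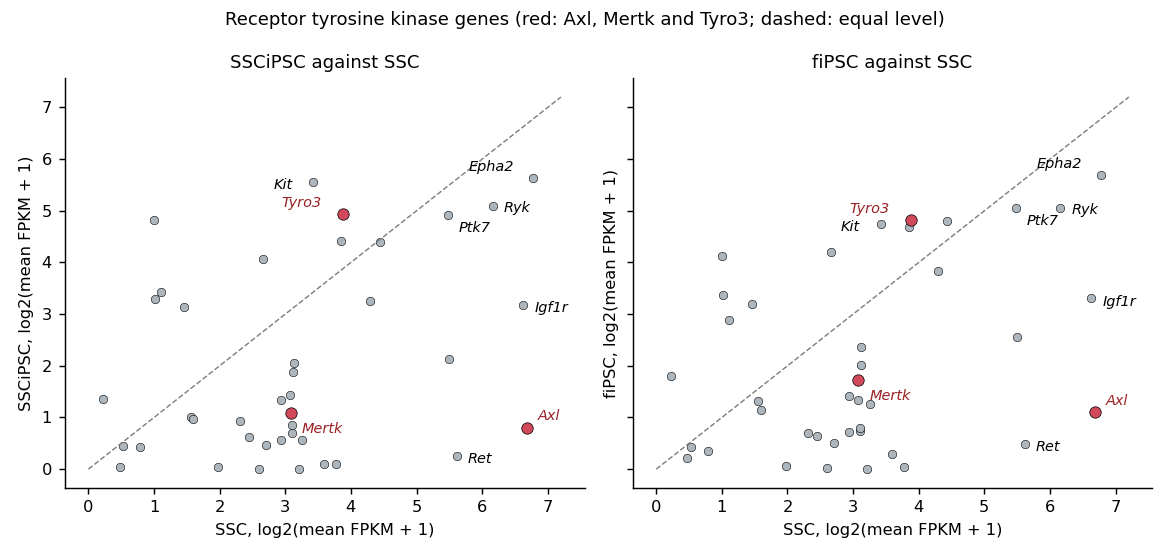
Mean level of each of 40 receptor tyrosine kinase genes, as log2(mean FPKM + 1), in SSCiPSC (left) and fiPSC (right) against SSC, with Axl, Mertk and Tyro3 in red and the line of equal level dashed. Axl lies far below the line beside Ret, and Tyro3 lies above it.

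The genes around the receptors and ligands were taken by function, and each count is for fiPSC against SSC by limma unless stated. Other ligands had 2 genes with a locus of 3. Lgals3, which encodes galectin-3, was at 24.2 ± 15.9 FPKM in SSC and 13.9 ± 3.77 in fiPSC (limma, adjusted p = 0.290). Tulp1 was at 0.221 ± 0.242 FPKM in SSC and 2.07 ± 0.627 FPKM in fiPSC. Of the 6 libraries of this fit it reached 1 FPKM in those of fiPSC only, so its call as higher was set by the filter, and it was not in the fit when loci had to average 5 FPKM.

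Of 6 genes of vitamin K-dependent carboxylation, 2 were higher and none lower, with a median difference of 0.42 beside 0.17 for all loci. The share called higher was near the 28.0% of all loci. Calu, whose product calumenin inhibits the carboxylase, had the highest mean over all 9 libraries, with 94.5 ± 7.58 FPKM in SSC, 97.1 ± 15.2 in SSCiPSC and 84.6 ± 11.7 in fiPSC (limma, adjusted p = 0.336 for fiPSC against SSC). Vkorc1l1, a vitamin K reductase, rose from 7.50 ± 1.36 to 18.3 ± 1.497 FPKM (limma, adjusted p = 0.00160). Nqo1, a quinone reductase, rose from 2.16 ± 1.004 to 21.6 ± 4.02 FPKM (limma, adjusted p = 0.000369).

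Of the other vitamin K-dependent proteins, 7 of 13 had a locus and 3 were tested. Mgp, which encodes the matrix Gla protein, fell from 23.6 ± 7.97 to 1.498 ± 0.913 FPKM (limma, adjusted p = 0.000532). Prrg4, a membrane Gla protein, was at 27.3 ± 2.75 FPKM in SSC, 14.5 ± 1.88 in SSCiPSC and 24.2 ± 5.42 in fiPSC (limma, adjusted p = 0.452 for fiPSC against SSC). F2, prothrombin, was at 2.005 ± 0.410 FPKM in SSC and 1.74 ± 0.565 in fiPSC (limma, adjusted p = 0.658).

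The proteases that shed the extracellular part of Axl and Mertk, and their regulators, were lower in fiPSC in 4 of 4 genes, against 23.7% of all loci. Adam10 fell from 18.4 ± 1.41 to 5.62 ± 0.607 FPKM (limma, adjusted p = 0.000361), and Adam17 from 33.3 ± 4.54 to 21.2 ± 0.748 (limma, adjusted p = 0.00902). Rhbdf2, which brings Adam17 to the cell surface, fell from 15.1 ± 1.53 to 8.33 ± 0.559 FPKM (limma, adjusted p = 0.00444). Rhbdf1 fell from 15.3 ± 3.53 to 6.43 ± 1.201 FPKM (limma, adjusted p = 0.00629). In SSCiPSC their means were 6.40, 21.0, 8.37 and 2.46 FPKM in the same order.

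Of 16 tested genes of signalling below the receptors, 11 were lower and 3 higher in fiPSC, against 23.7% and 28.0% of all loci, with a median difference of -1.01 beside 0.17 for all loci. The 3 with the highest mean over all libraries did not fall. Pik3r2, a regulatory subunit of PI3-kinase, rose from 38.9 ± 6.28 to 92.5 ± 37.6 FPKM (limma, adjusted p = 0.0227). Socs3, an inhibitor of cytokine signalling that TAM receptors induce in immune cells and LIF induces in stem cells, rose from 19.9 ± 2.86 to 55.7 ± 14.7 FPKM (limma, adjusted p = 0.00205). Plcg1, phospholipase C gamma, was at 24.8 ± 3.15 and 34.2 ± 6.16 FPKM (limma, adjusted p = 0.0681). The third gene called higher was Grb2, an adaptor. Among the lower genes was Fyn, a kinase of the Src family chosen for mention after its values were seen, which fell from 41.5 ± 2.43 to 2.93 ± 0.357 FPKM. The count of genes called higher was 1 without SSC replicate 2 or fiPSC replicate 1 or 2.

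Of 16 tested genes of engulfment, 8 were lower and 2 higher in fiPSC, against 23.7% and 28.0% of all loci, with a median difference of -0.43 beside 0.17. Rac1, a small GTPase with the highest mean of the list over all 9 libraries, was at 66.9 ± 5.79 FPKM in SSC and 63.2 ± 5.18 in fiPSC (limma, adjusted p = 0.585). Crk, an adaptor, was at 52.1 ± 9.36 and 48.6 ± 2.36 FPKM (limma, adjusted p = 0.648). Mfge8, another bridge to phosphatidylserine, rose from 43.0 ± 2.92 to 56.3 ± 3.88 FPKM (limma, adjusted p = 0.0230). Adgrb1, a receptor of phosphatidylserine, was the other gene called higher and, of the 6 libraries of this fit, reached 1 FPKM in those of fiPSC only, and the count of genes called higher was 1 without fiPSC replicate 2 or 3. Abca1, a lipid exporter chosen for mention after its values were seen, fell from 98.9 ± 13.2 to 3.56 ± 0.879 FPKM, a difference of -4.46. Between fiPSC and SSCiPSC, none of the 47 tested genes of these 6 lists passed the threshold by limma, and 8 had an unadjusted p below 0.05, against 11.7% of all loci.

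By their profile over all 9 libraries, the genes nearest to Axl among 10328 named genes were Taf7l, Phldb2 and Crim1, at Euclidean distances of 0.94, 1.08 and 1.30 on log2(FPKM + 1). Taf7l, a germ cell form of a general transcription factor subunit, was at 115 FPKM on average in SSC, 1.24 in SSCiPSC and 1.06 in fiPSC. Phldb2 was at 69.9, 0.937 and 0.874 FPKM, and Crim1 at 64.3, 0.585 and 0.785 FPKM. The genes nearest to Mertk were Kif26a, Rab43 and Trim68, those nearest to Gas6 were Nfil3, Pdp1 and Hipk2, and those nearest to Pros1 were Scrn1, Afap1 and Ncoa1. Tyro3 had the closest neighbours, Nsmce1, Pus7 and Ddx11, at distances of 0.35 to 0.41. None of the 5 genes was among the 3 nearest of another, and the closest pair of them was Mertk and Pros1 at 2.07.

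The labels were set beside markers of the cell types that the samples could hold. Germ line markers (12 of 12 with a locus) summed to 810, 980 and 677 FPKM in SSC and to 277 to 463 FPKM in iPSC. The most abundant in SSC was Dazl. In SSCiPSC replicate 2 it was Sall4, at 150.5 FPKM, and in the other iPSC libraries Etv5, at 94.0 to 123 FPKM. Dazl, an RNA-binding protein of germ cells, was at 210 ± 46.8 FPKM in SSC, and Gfra1, the marker of the sort, at 31.9 ± 7.14 FPKM. Pluripotency markers (8 of 12) summed to 59.4 to 65.6 FPKM in SSC, where Nanog was listed at 0, and to 1576 to 2102 FPKM in iPSC. Of these, Pou5f1 and Klf4 are also carried by the inducible transgene.

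Of the markers of other testis cells, the Sertoli, Leydig and peritubular myoid sums were higher in every SSC library than in any iPSC library. Axl, Mertk, Gas6 and Pros1 were higher in SSC as well, while the endothelial sums of SSC and iPSC overlapped. Sertoli cell markers (11 of 15) summed to 1350, 1337 and 1134 FPKM in SSC replicates 1, 2 and 3, with Clu, clusterin, the most abundant at 632 ± 88.1 FPKM. In the iPSC they summed to 171 to 303 FPKM, nearly all of it Rhox5, while Cst12 and Defb19 were listed at 0 in every iPSC library. Leydig cell markers (4 of 8) summed to 171, 154 and 269 FPKM in SSC and to at most 0.742 FPKM in iPSC, with Cyp11a1 leading in SSC and Lhcgr at 0 in all iPSC. Peritubular myoid markers (4 of 7) summed to 85.8, 76.9 and 70.2 FPKM in SSC and to 8.98 to 12.5 FPKM in iPSC, with Acta2 leading in SSC. Endothelial markers (7 of 7) summed to 122, 58.5 and 99.7 FPKM in SSC and to 85.1 to 129.5 FPKM in iPSC. Pecam1 led in both and Emcn was at 0 in all iPSC. Most of the iPSC sums was Pecam1, at 79.6 to 124.8 FPKM, against 54.6, 26.6 and 44.1 FPKM in SSC. By limma 4 of the 7 were lower and 1 higher in fiPSC than in SSC, against 23.7% and 28.0% of all loci. Of the 6 libraries of this fit those 4 reached 1 FPKM in SSC only, so the filter set their calls.

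Macrophage markers (8 of 11) varied most among the SSC libraries, with sums of 57.5, 21.3 and 182 FPKM in replicates 1, 2 and 3, C1qa leading in replicates 1 and 3 and Mrc1 in replicate 2. In iPSC they summed to 9.06 to 14.7 FPKM, mostly Cd68. Pros1 and Axl had the same order among the SSC libraries, highest in replicate 3 and lowest in replicate 2. The Leydig cell sum and the fibroblast and feeder sum had that order as well, and replicate 2 was also the deepest and replicate 3 the shallowest SSC library. Gas6 was highest in replicate 3 and lowest in replicate 1, and Mertk was highest in replicate 1 and lowest in replicate 2. Tyro3 and the germ line sum were both highest in replicate 2, but Tyro3 was lowest in replicate 1 and that sum in replicate 3. The endothelial sum had the order of Mertk. The Sertoli cell and peritubular myoid sums were highest in replicate 1 and lowest in replicate 3, an order that none of the 5 genes had. The range of Axl over these libraries was 95.7 to 109.5 FPKM, and that of Pros1 4.88 to 11.5 FPKM. Fibroblast and feeder markers (12 of 12) summed to 477, 435 and 892 FPKM in SSC, 365, 453 and 463 in SSCiPSC and 304, 279 and 361 in fiPSC, with Vim the most abundant in SSC and SSCiPSC and Fn1 or Vim in fiPSC. No marker of that list was at 0 in all libraries of a group. The part of these cell types in the levels of the 5 genes was not tested.

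**Figure D5:**
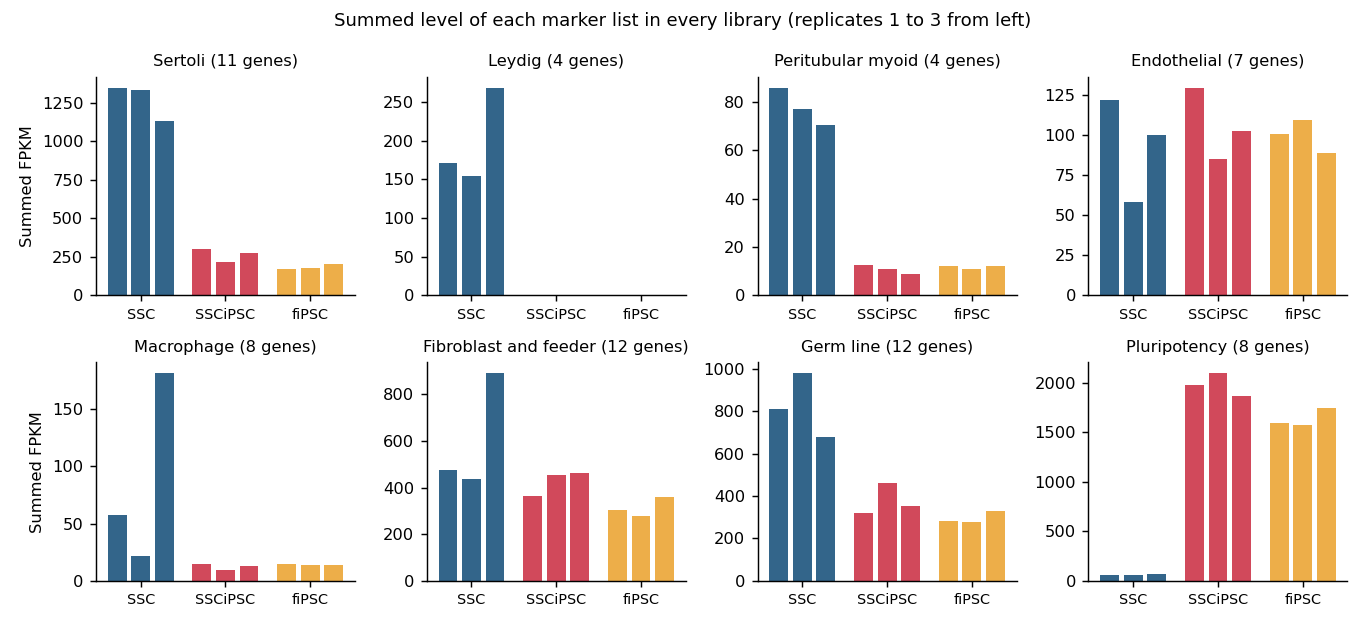
Summed FPKM of each of 8 marker lists in the 9 libraries, with the number of genes that had a locus in each title and axes that differ between panels. Sertoli and Leydig cell sums are high in all SSC libraries, and the macrophage sum ranges from 21.3 to 182 FPKM among them.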

How the data were processed

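The 9 libraries were grouped by the labels. The authors sequenced paired-end libraries made with a stranded mRNA kit, aligned read pairs with TopHat and quantified loci with Cufflinks. The labels also name depletion of ribosomal RNA, which the methods do not mention. The deposited values are FPKM, made by the authors from read pairs, although the header says RPKM, and a scaling between libraries is not given in the sources used here. The submitters' processing notes name Trimmomatic 0.32, TopHat2 2.0.9, Bowtie2 2.1.0, Cufflinks 2.2.1 and Cuffdiff, and the build mm9, but the coordinates match GRCm38: of the loci assigned to a strand with both ends within 300 bp of a gene's, 98.0% had its strand.

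Of 54914 loci, 1 with a blank value was left out. Strand was inferred from the order of the table, and 70.2% of loci had none. A locus with a strand was named for a GENCODE gene of that strand at a reciprocal overlap of at least 50%, and where a gene had several loci, the one of highest mean was used. Depth was estimated from the lowest values of loci of 600 to 6000 bp. A fragment per kilobase was worth 0.566, 0.216 and 0.723 FPKM in SSC replicates 1, 2 and 3 and at most 0.0754 FPKM in iPSC. Numbers of fragments behind a level were estimated from that worth and the longest coding transcript.

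Groups were compared with limma 3.58.1 in R 4.3.3 (eBayes with a trend) on log2(FPKM + 1), in loci of at least 1 FPKM in at least 3 of 6 libraries, with Benjamini-Hochberg adjustment over all loci and a threshold of 0.05. Other steps and plots used Python 3.11.15, pandas 2.3.3, numpy 2.4.6 and matplotlib 3.10.9. The fit and the depth estimate were tested on simulated data. Genes named besides the 5 are the 3 of each list with the highest mean over the 9 libraries, those listed at 0 in a group and at 5 FPKM or more in another, those past the threshold between the iPSC groups, the 3 highest kinases of each group, the 3 nearest profiles of each gene, and some chosen after their values were seen. The 5 genes, the lists and the tests were chosen with earlier results of these data known. Alternatives tried were all loci above 0, only loci that average 5 FPKM, a pseudocount of 0.1, quantile normalization, median-ratio scaling, a replicate block, a fit of all 9 libraries, loci assigned to a strand only, the sum over all loci of a gene, and each library left out in turn. The deposited summary of features was not used, and other experiments of the study were not analysed here.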

Additional observations from a re-analysis of the deposited data

How the results depend on the processing

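The differences of the 5 genes kept their sign under all alternatives that gave a value. Their size depended on the pseudocount. With a pseudocount of 0.1 the SSCiPSC minus SSC difference was -6.92 for Axl and -2.69 for Mertk, in place of -5.88 and -2.01. For fiPSC minus SSC that of Axl was -6.36 in place of -5.58. Mertk had none in any comparison with a mean of at least 5 FPKM, nor had Gas6 and Pros1 for fiPSC against SSCiPSC, where Axl was in the fit only without a filter. The SSC libraries were the shallowest, so low levels there are the least certain. Of all loci, 10070 passed for SSCiPSC against SSC and 10528 for fiPSC against SSC with a mean of at least 5 FPKM, and 9334 and 9758 with loci assigned to a strand only, where fewer loci were tested than in the 18396 and 19680 calls of the fit as described. For fiPSC against SSCiPSC, 23 loci passed, 10 with a mean of at least 5 FPKM and 11 with all 9 libraries in the fit, and from 6 to 20 without 1 library. Of Mertk, Tyro3, Gas6 and Pros1, 4 passed for fiPSC against SSC and 2 to 4 without 1 library, with 2 without fiPSC replicate 1 or 2. The cause was not tested. Median-ratio scaling gave a mean of 90.7 FPKM for Axl in SSC. The replicate numbers did not pair the samples (correlations of deviations of libraries with the same number from -0.24 to 0.03), and with a replicate block 16926, 6 and 17546 loci passed for SSCiPSC against SSC, fiPSC against SSCiPSC and fiPSC against SSC. With the block, 1 gene of engulfment and not 2 was called higher in fiPSC than in SSC. The same held with quantile normalization, with all 9 libraries in the fit and with a mean of at least 5 FPKM.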
